A study of Mus musculus with 24 samples.

Results

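Neurons are recognised by genes for their cytoskeleton, RNA-binding proteins, synaptic vesicles and adhesion molecules, and several of these genes are also read at lower levels in neural progenitors and glia. Of these genes, 9 (Dcx, Tubb3, Rbfox3, Elavl3, Uchl1, Syp, Nsg2, Ncam1 and Calb2) were followed here through glial progenitor cells that had been differentiated, had lost Dgcr8, or had been given a microRNA. All probes carrying 1 of these symbols were taken from the Illumina bead array used in the study, which gave 14 of its 25697 probes and 9 of its 16593 named genes. Dcx was covered by 3 probes, Rbfox3, Ncam1 and Calb2 by 2 probes each, and the other 5 genes by 1 probe each.

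The cells were glial progenitor cells derived from mouse embryonic stem cells and kept as progenitors with EGF and FGF in N2 medium. They carried Dgcr8 as a conditional allele opposite a deleted one (flox/delta). Dgcr8 is the partner of Drosha in the microprocessor, which releases hairpin precursors from most primary microRNA transcripts. The first hybridization held 3 arrays of differentiated flox/delta cells (EGF and FGF withdrawn, B27 and 1% fetal bovine serum added), 3 of undifferentiated Dgcr8 knockout cells, whose labels also read mock, and 3 of undifferentiated flox/delta cells. In hybridizations 2 and 3, the second and the third, undifferentiated knockout cells with let-7 (3 arrays) or miR-125 (3 arrays) were set against mock knockout cells (4 arrays). All knockout cells had received tamoxifen at 1 uM for 16 h and then 100 nM for 16 h, and the labels list no tamoxifen for the flox/delta arrays. Replicates of the let-7, miR-125 and mock groups were separate tamoxifen treatments, while the labels do not give the origin of the replicates of the first hybridization. The p-values measure only the spread between these arrays.

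Let-7 and miR-125 are conserved microRNA families that become abundant as neural cells mature. A microRNA guides the silencing complex to messages that pair with its seed, bases 2 to 8. The sequences are shown because the seed is the part of an added microRNA that selects its targets. The labels name only let-7 and miR-125, not the family member, so 2 members of each family are printed from RefSeq (GRCm38.p6), 5′ to 3′, with the seed in capitals.
let-7a-5p, chr13:48538239-48538260, minus strand: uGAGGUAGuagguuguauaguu
let-7b-5p, chr15:85707325-85707346, plus strand: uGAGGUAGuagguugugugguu
miR-125a-5p, chr17:17830817-17830840, plus strand: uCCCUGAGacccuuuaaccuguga
miR-125b-5p, chr9:41581940-41581961, plus strand: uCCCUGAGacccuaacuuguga
The seed GAGGUAG was shared by 10 of 11 mature sequences of the let-7 family in RefSeq. The seed CCCUGAG was shared by both miR-125 sequences and by no let-7 sequence.

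Promoters were listed in RefSeq for 7 of the 9 genes, as 9 windows. The 250 bases before the start are printed for Dcx and Elavl3, which had the largest rise in differentiated against undifferentiated cells and signal in differentiated cells alone, and TATAAA, the core of a TATA box, is in capitals. Both lie on the minus strand of GRCm38.p6 and are written 5′ to 3′ along the gene.
Dcx, chrX:143933220-143933469: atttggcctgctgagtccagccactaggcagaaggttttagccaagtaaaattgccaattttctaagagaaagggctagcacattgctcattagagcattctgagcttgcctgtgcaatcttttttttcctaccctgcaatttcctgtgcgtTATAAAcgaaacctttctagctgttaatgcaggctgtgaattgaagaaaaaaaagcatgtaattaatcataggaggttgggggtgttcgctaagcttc
Elavl3, chr9:22052024-22052273: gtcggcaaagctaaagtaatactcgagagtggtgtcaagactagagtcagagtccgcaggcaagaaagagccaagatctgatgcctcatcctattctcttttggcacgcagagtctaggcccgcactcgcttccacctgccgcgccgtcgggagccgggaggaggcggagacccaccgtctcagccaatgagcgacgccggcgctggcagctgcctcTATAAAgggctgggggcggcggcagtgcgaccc
Searched on both strands, TATAAA was found 98 bases before this start of Dcx and 33 bases before that of Elavl3. The same Dcx site lies 193 bases before the other start listed for Dcx. Whether either site acts as a TATA box was not tested. TATAAA was not found in the windows of the other 5 genes, and 12.4% of all 32851 promoter windows of this length held it. TCAGCACC is the left part of the RE1 element bound by the repressor REST. It was found in 2 of the 9 windows, that of Tubb3 and 1 window of Nsg2, and in 1.32% of all windows. Enrichment was not tested. CAGCTG, an E-box read by proneural factors, was found for Elavl3 and in 13.0% of all windows. The Dcx window held 41.6% G and C with 3 CpG, and the Elavl3 window 61.6% with 20 CpG.

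Signals were put on a log2 scale after background correction and normalization, and the 9 arrays of the first hybridization were normalized apart from the 10 others, so levels are compared only within each set. Mean raw signal was 298 to 474 in the first hybridization, 1429 to 1523 in the second and 756 to 868 in the third, and 11788 to 13129 probes were above background (detection p under 0.05) per array. Dgcr8 itself gave 6.80, 7.02 and 6.66 in the knockout arrays of the first hybridization against 7.29, 7.48 and 7.26 in undifferentiated flox/delta arrays. These 2 groups did not overlap, nor did they in 60.5% of all probes tested. Dgcr8 was 6.96 to 7.33 in differentiated cells. With let-7, with miR-125 and in mock cells it was 7.65 to 8.31, 7.64 to 8.61 and 7.87 to 8.38, and it was detected on all 19 arrays. Whether this probe lies in the deleted part of the gene is not given. Of 13 progenitor markers with a probe, 10 were detected on every array of both flox/delta groups and 9 on every knockout array of the first hybridization, Olig2, Sox2, Nes and Vim among them. Markers of microglia and of neural crest were detected on all arrays of no group.

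Of the 14 neuronal probes, 12 were detected on at least 3 arrays. A Dcx probe (ILMN_1256251) was detected on none of the 19 arrays and a Rbfox3 probe (ILMN_3036278) on 1. Elavl3 was detected on the 3 arrays of differentiated cells and nowhere else. Tubb3, the beta-tubulin commonly stained to identify young neurons, was detected on 4 arrays, 3 of them knockout arrays of the first hybridization and 1 an undifferentiated flox/delta array. It was below background on all 3 arrays of differentiated cells.

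**Figure D1:**
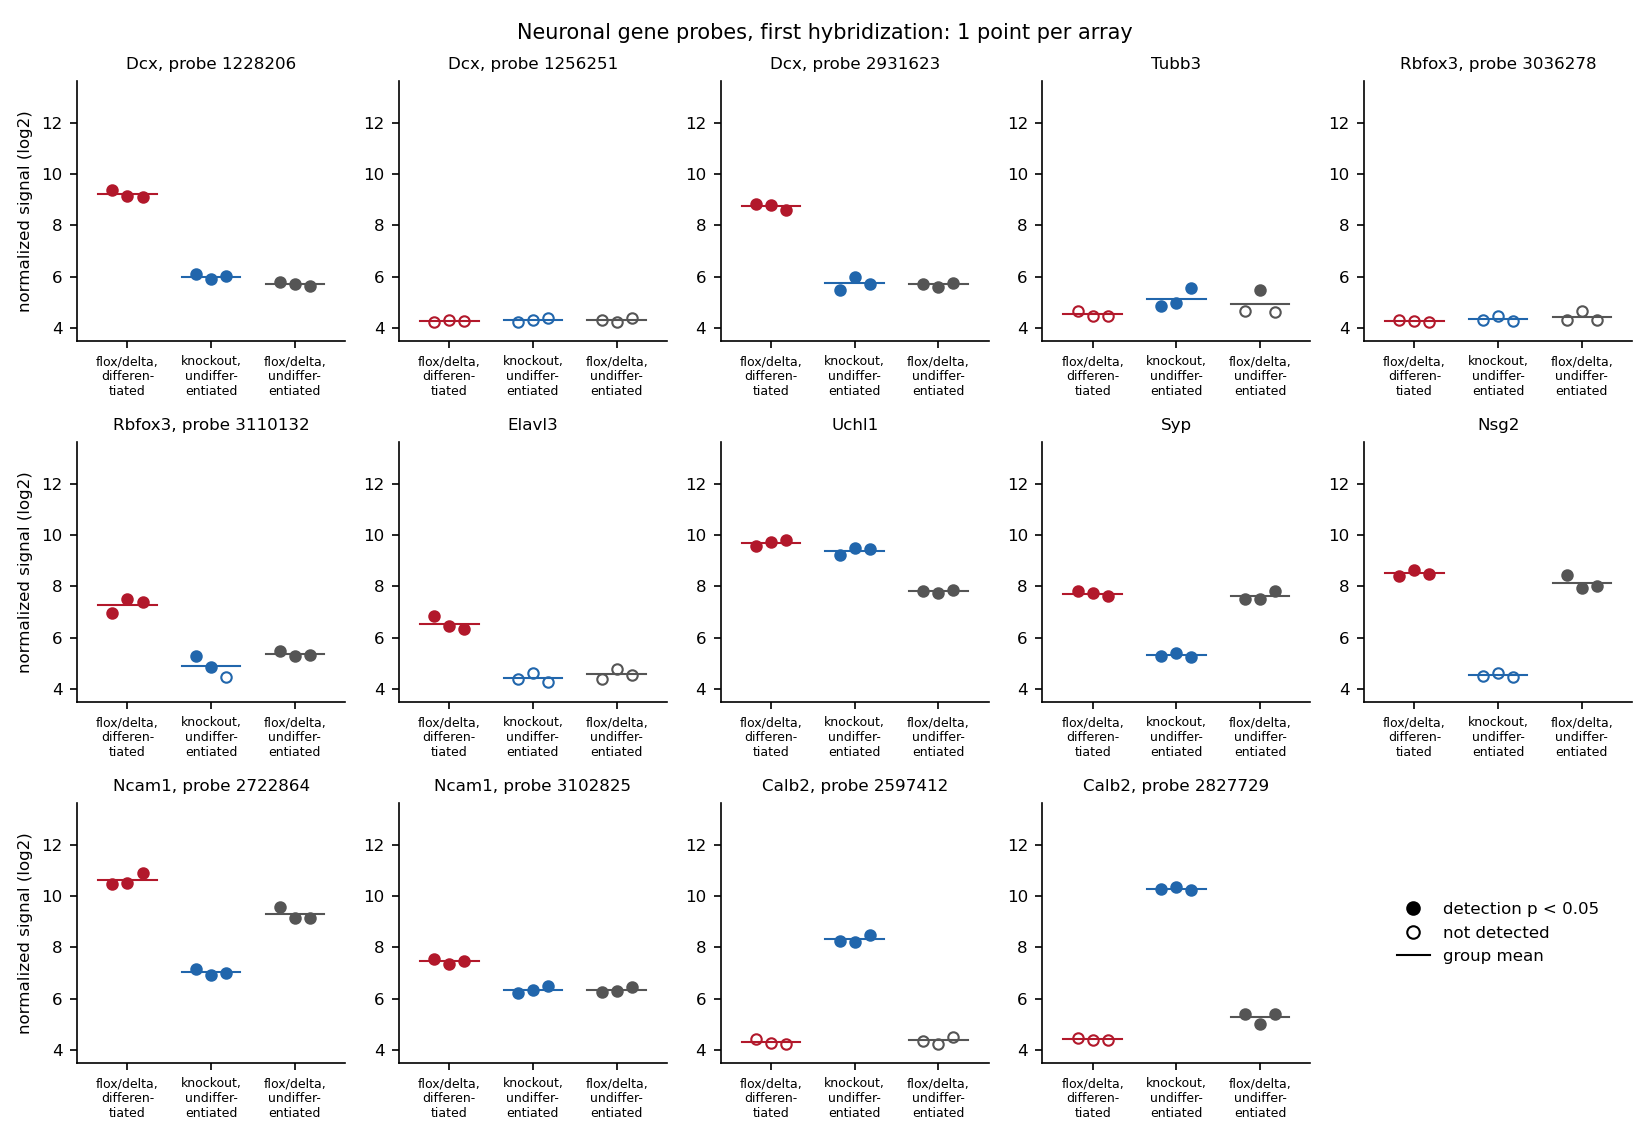
Normalized signal (log2) of the 14 neuronal probes on each array of the first hybridization. Filled points were detected at p under 0.05, open points were not, and lines are means of 3 arrays. Dcx, Rbfox3 and Elavl3 are high in differentiated cells alone, Syp and Nsg2 are low in knockout cells alone, and Calb2 is high in knockout cells alone.

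In differentiated flox/delta cells, 5 of the 9 neuronal genes rose against undifferentiated flox/delta cells and 1 fell. The rises were in Dcx, Rbfox3, Elavl3, Uchl1 and Ncam1, and ranged over their probes between 1.11 and 3.48 on the log2 scale. Calb2 fell, Syp and Nsg2 did not pass the test, and Tubb3 was below background on too many arrays to be tested. By probe, 10 of 14 were tested with limma, and 7 were called higher and 1 lower at an adjusted p under 0.05. Over all 12738 probes tested, 53.5% were called (26.6% higher and 26.9% lower). Of the 10, 8 did not overlap between the groups, beside 60.8% of all probes tested. The median difference was 1.62 over the members' probes tested and -0.02 over all probes. The members were chosen with earlier results of these data known, so this contrast and the counts are a description. Elavl3 and Calb2 ILMN_2827729 were detected in 1 group alone and passed the filter only through it. Sizes were smaller without background correction, at 2.35 for the first Dcx probe, 0.98 for Rbfox3, 0.77 for Elavl3 and -0.28 for Calb2, with the calls kept.

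Dcx encodes doublecortin, which binds microtubules in migrating young neurons. Its first probe (ILMN_1228206) read 9.36, 9.12 and 9.12 in differentiated cells against 5.79, 5.72 and 5.63 in undifferentiated cells. All differentiated arrays lay above all undifferentiated ones, and the difference was 3.48 ± 0.11 (SE), an 11.2-fold rise (limma, adjusted p = 1.87e-08). The second detected probe (ILMN_2931623) read 8.83, 8.80 and 8.58 against 5.73, 5.60 and 5.76 in undifferentiated cells. Its difference was 3.04 ± 0.11 (limma, adjusted p = 3.98e-08). Over the 9 arrays of the first hybridization these 2 probes had r = 0.99, which is given as a description of arrays that share 3 groups.

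Rbfox3 encodes NeuN, a splicing regulator used to mark mature neurons. Its probe ILMN_3110132 read 6.94, 7.52 and 7.39 in differentiated cells against 5.48, 5.28 and 5.32 in undifferentiated cells, without overlap. The difference was 1.92 ± 0.15 (limma, adjusted p = 7.05e-06). Elavl3 encodes HuC, a neuronal protein that stabilises messages rich in AU elements. It read 6.84, 6.47 and 6.32 in differentiated cells and was not above background in undifferentiated cells, where its arrays read 4.40, 4.78 and 4.54. Where a probe was above background in 1 group alone, its fold was taken against the lowest signal among probes above background, or the probe's own where that was higher, and is a lower bound. Elavl3 was at least 3.48-fold higher in differentiated cells (limma, adjusted p = 6.48e-06).

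Uchl1 encodes an abundant deubiquitinating enzyme of neurons (PGP9.5). It read 9.58, 9.72 and 9.81 in differentiated cells against 7.83, 7.73 and 7.86 in undifferentiated cells, and the groups did not overlap. The rise was 1.90 ± 0.10 (limma, adjusted p = 5.5e-07), or 3.73-fold. Ncam1 encodes the neural cell adhesion molecule, which glia make as well. Its probe ILMN_2722864 read 10.47, 10.52 and 10.91 against 9.56, 9.14 and 9.16 in undifferentiated cells. ILMN_3102825, designed on another transcript, read 7.54, 7.34 and 7.47 against 6.25, 6.31 and 6.45. Both were higher on every differentiated array, by 1.35 ± 0.16 and 1.11 ± 0.11 (limma, adjusted p = 8.84e-05 and 2.29e-05).

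The vesicle gene Syp, whose product synaptophysin sits in the membrane of synaptic vesicles, did not pass the test. It read 7.80, 7.73 and 7.61 in differentiated cells against 7.52, 7.51 and 7.82 in undifferentiated cells. The groups overlapped, and the difference was 0.10 with a 95% interval between -0.17 and 0.37 (limma, adjusted p = 0.513). Nsg2 encodes a small membrane protein of neuronal endosomes. It read 8.41, 8.63 and 8.47 against 8.45, 7.93 and 8.0 in undifferentiated cells, and the difference of 0.38 ± 0.15 missed the threshold (limma, adjusted p = 0.0572). Without undifferentiated replicate 1, which read 8.45, it was 0.54 with an adjusted p of 0.0049 in limma. Calb2 encodes calretinin, a calcium-binding protein of particular interneurons. Its probe ILMN_2827729 was detected on all 3 undifferentiated arrays (5.40, 5.02 and 5.39) and on no differentiated array (4.46, 4.39 and 4.38). It was at least 1.53-fold lower in differentiated cells (limma, adjusted p = 0.000324), and it was not tested when any 1 undifferentiated array was left out, since 2 detected arrays do not pass the filter.

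Genes of other cell types moved in the same comparison, with 7 of 8 tested astrocyte markers higher, and 6 of 8 oligodendrocyte lineage markers higher and 1 lower. The summed signal of 8 astrocyte markers was 32013 to 35257 in differentiated cells, where 7 were detected on every array, against 8318 to 9303 in undifferentiated cells, where 6 were. Gfap, the intermediate filament of astrocytes, was detected in differentiated cells only, and was at least 86.7-fold higher there (limma, adjusted p = 6.2e-10). Oligodendrocyte lineage markers summed to 16707 to 18304 against 5856 to 6142 in undifferentiated cells, with 7 against 6 of 9 detected on every array. The 4 cell division genes with a probe, all detected and all lower, summed to 684 to 736 in differentiated cells against 16110 to 17216 in undifferentiated cells. Of 6 pluripotency genes, 4 were detected on every differentiated array and 5 on every undifferentiated array, and of 5 tested 2 were lower, Esrrb by a difference of -1.72. The part of these changes in the neuronal result was not tested. In bulk RNA a change in the number of cells of a type and a change of RNA per cell cannot be told apart.

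The other neuronal genes are given by lists without the members. These lists were also chosen with earlier results of these data known, so their counts are a description. Of 13 cytoskeleton genes tested, 8 rose and 2 fell, with a median of 0.91. Dpysl3, a collapsin response mediator, rose by 2.91 ± 0.28 (limma, adjusted p = 2.57e-05), whereas Gap43, a growth cone protein, fell by 1.30 (limma, adjusted p = 0.000105). Of 13 genes of synaptic vesicles and release, 9 rose and 1 fell, with a median of 0.41. Cplx1, which clamps vesicle fusion, was 2.94 higher and the calcium sensor Syt1 fell by 1.00 (limma, adjusted p = 4.73e-08 and 3.45e-05). Of 9 axonal adhesion genes, 6 rose and 1 fell, with Cntn1 at 2.52 ± 0.10 and Nlgn3 at -0.80 ± 0.10 (limma, adjusted p = 7.95e-08 and 0.000125).

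Neuronal RNA-binding proteins and repressors of neuronal genes were also counted. Of 5 neuronal RNA-binding proteins other than Rbfox3 and Elavl3, 1 rose (Khdrbs2, at least 2.32-fold) and 3 fell, Khdrbs3 by 0.67. Of 10 repressors of neuronal genes, none rose and 6 fell, with a median of -0.50. Id3, an inhibitor of proneural helix-loop-helix factors, fell by 1.36 (limma, adjusted p = 1.35e-05). Of 6 neuronal fate factors, 1 rose (Myt1, by 0.62) and 1 fell (Dlx1, by 0.36). Of 7 calcium-binding proteins, 2 rose and 2 fell, with Pvalb, the parvalbumin of interneurons, at 1.93 ± 0.17 and Hpcal1 not above background in differentiated cells and at least 1.96-fold lower. Gad1, which makes the transmitter GABA, was the 1 transmitter gene tested and was 1.15 higher, and Nsg1 did not pass. Over all 8667 genes tested, 2406 rose and 2302 fell, and the median was -0.01.

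**Figure D2:**
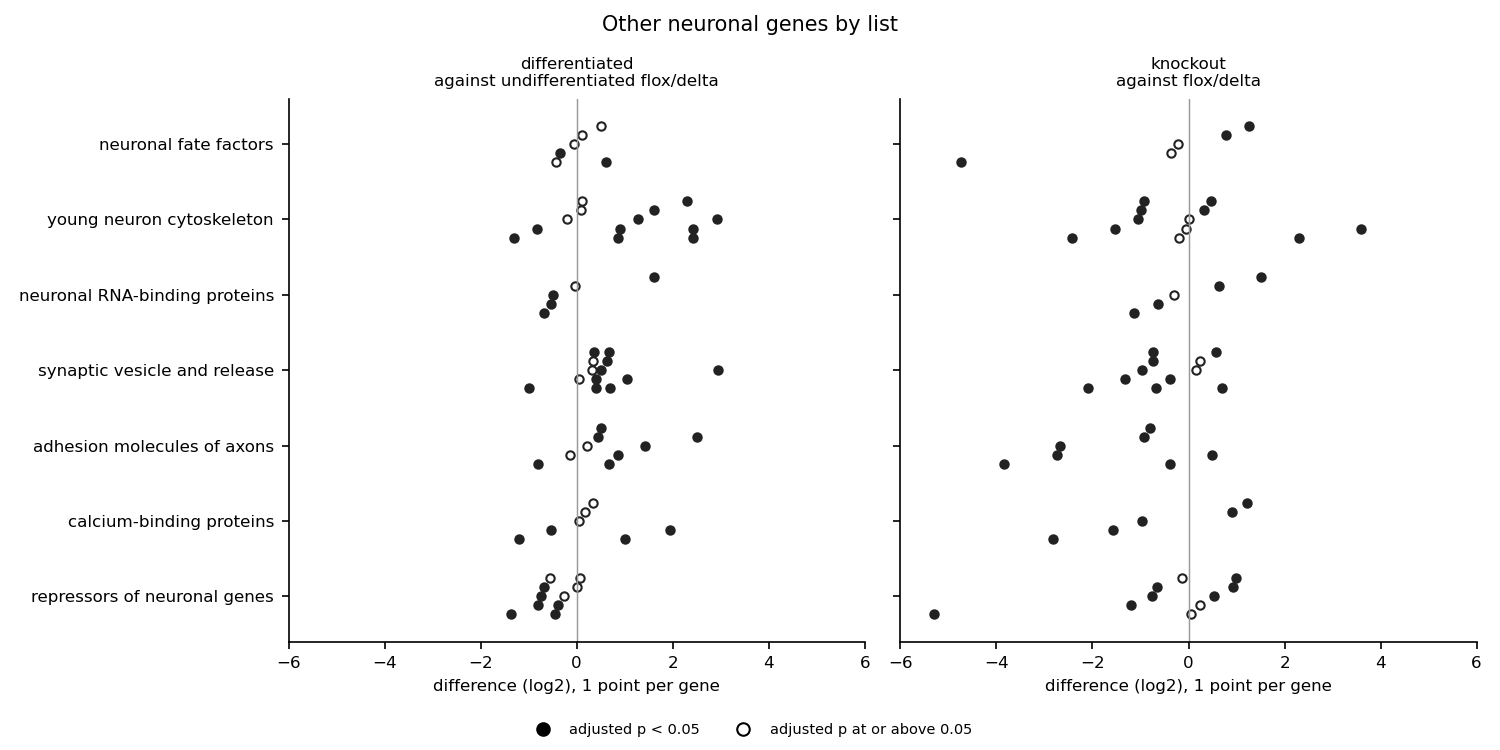
Log2 differences of the other neuronal genes, 1 point per gene, for differentiated against undifferentiated flox/delta cells (left) and knockout against undifferentiated flox/delta cells (right). Filled points have an adjusted p under 0.05 in limma. On the left most filled points of the cytoskeleton, vesicle and adhesion lists lie above 0, and on the right most filled points of the vesicle and adhesion lists lie below 0.

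In knockout cells, compared while undifferentiated with undifferentiated flox/delta cells, the neuronal genes moved in both directions. In this comparison only the knockout labels list tamoxifen and mock, so these and the loss of Dgcr8 cannot be told apart. Calb2, Uchl1 and 1 probe of Dcx were higher, Syp, Nsg2, 1 probe of Ncam1 and Rbfox3 were lower, and Tubb3 did not pass the test. By probe, 11 were tested, 4 were called higher and 4 lower, and 3 were not called. With any 1 of the 3 flox/delta arrays left out, 2 were called lower, since Nsg2 was then detected on too few arrays to be tested and Rbfox3 did not pass. With knockout replicate 1 or 3 left out, 2 were called higher, since the second Calb2 probe could not be tested and Dcx did not pass. Over all 12356 probes tested, 52.7% were called (27.0% higher and 25.7% lower). Of the 11, 7 did not overlap between the groups, beside 60.5% of all probes tested. Nsg2 and Calb2 ILMN_2597412 were detected in 1 group alone and passed the filter only through it. The median was 0.03 over the members' probes and -0.14 over their genes, against 0.02 over all probes and over all genes.

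Calb2 had the largest difference of the members. Its probe ILMN_2827729 read 10.25, 10.35 and 10.23 in knockout cells against 5.40, 5.02 and 5.39 in undifferentiated flox/delta cells. The rise was 5.01 ± 0.12, or 32.1-fold (limma, adjusted p = 1.79e-08), and ranked 8 by size among the 12356 probes. Without background correction the rise was 3.49 and still called. The second probe (ILMN_2597412) read 8.25, 8.22 and 8.46 in knockout cells and was not above background in flox/delta cells (4.36, 4.24 and 4.51). It was at least 11.9-fold higher (limma, adjusted p = 2.83e-08), so both probes of the gene moved the same way.

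Uchl1 read 9.23, 9.49 and 9.44 in knockout cells against 7.83, 7.73 and 7.86 in flox/delta cells. The groups did not overlap, and the rise was 1.58 ± 0.10 (limma, adjusted p = 2.71e-06). Of the Dcx probes tested, 1 passed. The first probe read 6.08, 5.90 and 6.01 in knockout cells against 5.79, 5.72 and 5.63 in flox/delta cells, a difference of 0.28 ± 0.10 (limma, adjusted p = 0.0381). The second read 5.49, 5.98 and 5.72 in knockout cells against 5.73, 5.60 and 5.76 in flox/delta cells and differed by 0.03 (limma, adjusted p = 0.844). The call of the first probe was lost when flox/delta replicate 2 or 3 or knockout replicate 1 or 3 was left out, with adjusted p of 0.0759, 0.117, 0.133 and 0.0856 in limma. It was also lost without background correction (0.12, adjusted p = 0.117), with median scaling (0.19, 0.497), with an offset of 50 (0.18, 0.0757) and on the authors' normalized values (0.12, 0.117).

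Syp and Nsg2 were low in all knockout arrays. Syp read 5.29, 5.41 and 5.24 in knockout cells against 7.52, 7.51 and 7.82 in flox/delta cells, and fell by 2.30 (limma, adjusted p = 4.84e-07). Nsg2 was not above background in knockout cells, at 4.50, 4.60 and 4.47, against 8.45, 7.93 and 8.0 in flox/delta cells. It was at least 10.3-fold lower (limma, adjusted p = 1.26e-07). Without background correction the differences were -1.22 for Syp and -1.85 for Nsg2, both called. The other tested gene of its list, Nsg1, was also not above background in knockout cells and at least 1.68-fold lower (limma, adjusted p = 0.000107).

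The 2 Ncam1 probes parted in this comparison. ILMN_2722864 read 7.16, 6.91 and 7.0 in knockout cells against 9.56, 9.14 and 9.16 in flox/delta cells, and fell by 2.26 (limma, adjusted p = 1.44e-06). ILMN_3102825 read 6.21, 6.33 and 6.49 against 6.25, 6.31 and 6.45, a difference of 0.01 with a 95% interval between -0.24 and 0.25. Over the 9 arrays the 2 probes had r = 0.76, lower than the 0.99 between the 2 probes of Dcx and the 0.99 between those of Calb2.

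Rbfox3 read 5.29, 4.87 and 4.47 in knockout cells, where the last array was not above background, against 5.48, 5.28 and 5.32 in flox/delta cells. The groups overlapped by 1 array, and the difference of -0.48 ± 0.18 lay at the threshold (limma, adjusted p = 0.04999). It was lost in limma when any array other than knockout replicate 1 was left out, with adjusted p between 0.0707 and 0.149. It was also lost without background correction (-0.15, adjusted p = 0.1), with median scaling (-0.19, 0.489), with an offset of 50 (-0.24, 0.0576), with no filter (0.135), with all 9 arrays in the fit (0.0595) and on the authors' normalized values (-0.15, 0.105). Tubb3 read 4.84, 4.98 and 5.57 in knockout cells against 4.65, 5.49 and 4.63, and its 95% interval was -0.36 to 0.78 (limma, adjusted p = 0.523).

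Most glial markers were lower in these knockout arrays. Of 10 progenitor markers tested, 7 fell and 1 rose (Vim, by 0.48), with a median of -0.82 and the largest fall in Hes5. Of 6 astrocyte markers tested, 4 fell and 1 rose (Aldh1l1, by 1.13), and all 6 oligodendrocyte lineage markers tested fell. The astrocyte list summed to 3041 to 3453 in knockout cells, with 3 of 8 detected on every array, against 8318 to 9303 in flox/delta cells, and the oligodendrocyte list to 871 to 973 against 5856 to 6142. Gpr17, a receptor of committed oligodendrocyte precursors, was at least 6.92-fold lower (limma, adjusted p = 2.08e-06). Cell division genes summed to 17071 to 17772 in knockout cells against 16110 to 17216 in flox/delta cells, and of 5 pluripotency genes tested 1 fell (Klf4, not above background in knockout cells and at least 3.64-fold lower). Whether these genes have a part in the neuronal result was not tested.

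Among other neuronal genes, vesicle and adhesion genes were mostly lower in knockout cells. Of 11 vesicle genes tested, 2 rose and 7 fell, with a median of -0.68. Syn1, which tethers synaptic vesicles, fell by 2.10 and Syn2 rose by 0.71 (limma, adjusted p = 3.43e-07 and 0.00224). Of 7 adhesion genes, 1 rose and 6 fell, with a median of -0.93. Nlgn3, a postsynaptic neuroligin, fell by 3.85 (limma, adjusted p = 1.73e-08) and Cadm1 rose by 0.49.

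Cytoskeleton genes were split, with 4 higher and 5 lower of 12 tested. Map1b, a microtubule-associated protein of growing axons, was 3.58 ± 0.13 higher, and tau (Mapt) was not above background in knockout cells and at least 4.05-fold lower (limma, adjusted p = 7.21e-08 and 1.23e-06). Of 5 other calcium-binding proteins, 2 rose and 3 fell, with Hpcal1 at 1.21 ± 0.15 and Ncald at -2.82 ± 0.11. Of 5 fate factors, Insm1 was 1.26 higher and Myt1 fell by 4.74 (limma, adjusted p = 1.94e-05 and 2.83e-08). Of 10 repressors, 3 rose and 4 fell. Hes5, a Notch effector that is also a progenitor marker, fell by 5.29 and Rcor1, a corepressor of REST, rose by 0.99 (limma, adjusted p = 1.11e-07 and 0.000177). Of 5 RNA-binding proteins, 2 rose and 2 fell, with Rbfox2, a relative of Rbfox3, at 1.51 ± 0.16 and Elavl2, a relative of Elavl3, at -1.14 ± 0.09 (limma, adjusted p = 5.74e-05 and 9.47e-06). Gad1 was not above background in knockout cells and at least 1.37-fold lower. Over all 8403 genes tested, 2336 rose and 2224 fell, and the median was 0.02.

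Differentiated flox/delta cells and undifferentiated knockout cells differed in genotype, medium and listed tamoxifen. Each was already set against the same 3 flox/delta arrays. In a direct comparison, all 12 probes tested were called, 9 higher and 3 lower in differentiated cells, where 69.2% of all 12815 probes were called (33.3% higher and 35.8% lower). None of the 12 overlapped between the groups, and 72.1% of all probes did not. Elavl3, Nsg2, Tubb3 and both Calb2 probes were detected in 1 group alone and passed the filter only through it. Their calls and lack of overlap were thus in part set by the filter. The members were also chosen with earlier results of these data known, so the counts are a description. The first Dcx probe was 3.20 ± 0.10 higher in differentiated cells, Ncam1 ILMN_2722864 3.61 ± 0.13 and Syp 2.40 ± 0.10 (limma, adjusted p = 1.2e-08, 2.72e-08 and 4.38e-08). Nsg2 was at least 13.4-fold and Elavl3 at least 3.43-fold higher. Calb2 was at least 49.0-fold lower by ILMN_2827729 and Tubb3 at least 1.38-fold lower (limma, adjusted p = 2.86e-10 and 0.0136). With median scaling the Tubb3 difference was -0.25 and was not called (adjusted p = 0.193 in limma), against -0.60. Among the other neuronal genes, 9 of 13 vesicle genes were higher and 2 lower, and 7 of 10 adhesion genes were higher and 1 lower. Of 14 cytoskeleton genes 7 were higher and 2 lower, and of 7 calcium-binding proteins 4 and 2. Of 6 RNA-binding proteins 2 were higher and 2 lower, as were 2 and 2 of 6 fate factors. Of 10 repressors 2 were higher and 5 lower. Gad1 and Nsg1 were higher. Over all 8730 genes 3015 were higher and 3135 lower.

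Uchl1 was high in both of these groups. It was 0.32 ± 0.11 higher in differentiated cells (limma, adjusted p = 0.0256), and the call was lost without knockout replicate 1 or differentiated replicate 2 or 3, with adjusted p of 0.103, 0.0675 and 0.0848. With median scaling it was 0.14 and also not called (limma, adjusted p = 0.722). Tubb3 and the 2 Calb2 probes could not be tested when any 1 knockout array was left out, since of these 2 groups they were detected in knockout cells alone. Elavl3 and Nsg2, detected in differentiated cells alone, could not be tested when any 1 differentiated array was left out. In order of level, Dcx, Elavl3, Rbfox3 and Ncam1 were highest in differentiated cells, Syp and Nsg2 were high in both flox/delta groups without a called difference between them, and Calb2 was highest in knockout cells.

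**Figure D3:**
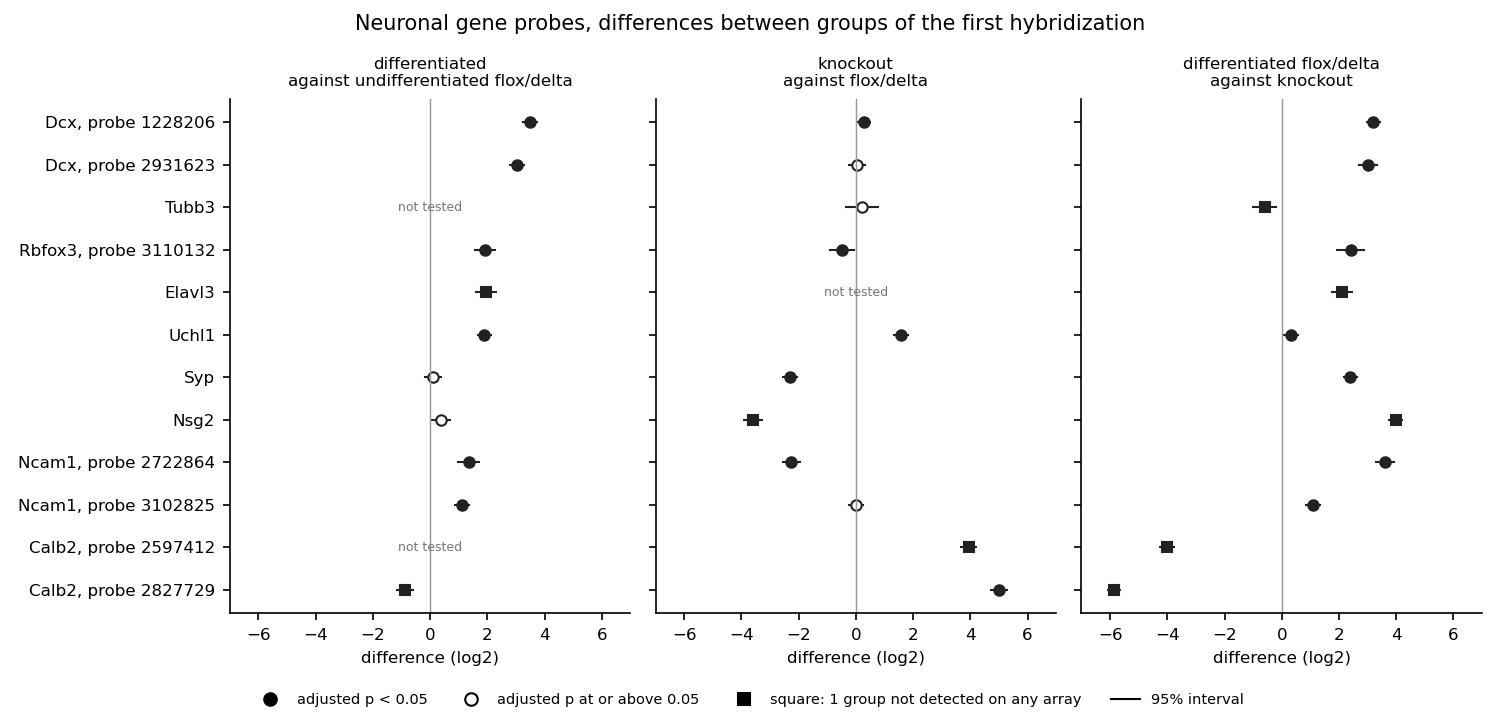
Log2 differences with 95% intervals for the neuronal probes in 3 comparisons of the first hybridization. Filled points have an adjusted p under 0.05 in limma, and squares mark probes not above background on any array of 1 group, whose plotted difference is not a bound. Calb2 lies at 5.01 in knockout against flox/delta cells, where Syp, Nsg2 and 1 Ncam1 probe lie below -2.

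The genes most like each member over the 9 arrays were found among 4207 genes with a range of at least 1 log2 unit. The correlations describe 3 groups of 3 arrays and carry no test. Dcx was most like Lmx1a and Lgi4 (r = 0.999 and 0.997), Uchl1 like Abhd14b and Drp2 (0.995 and 0.994), and Rbfox3 like Impact and H2ac18 (0.995 and 0.993). Elavl3 was most like Atp2a2 and Syt4 (0.994 and 0.992), Syp like Ss18l2 and Ncald (0.997 and 0.995), and Ncam1 ILMN_2722864 like Fbxo2 and Hexa (0.998 and 0.997). Each gene was taken by its probe of highest mean. The other Ncam1 probe, ILMN_3102825, had r = 0.76 with ILMN_2722864 and 0.98 with each detected Dcx probe. Nsg2 was most like Acss1 and Il18 (0.999 for both), and Calb2 like Cntn6 and Tgfbr1 (0.999 and 0.998). Tubb3, which spanned 1.09 log2 units, reached only 0.866 with Dnajc8 and 0.865 with Rnf220.

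Giving let-7 or miR-125 to knockout cells moved no neuronal probe past the threshold in limma. Each comparison tested 10 of the 14 probes, covering 7 genes, since Elavl3, Tubb3 and 1 probe each of Dcx and Rbfox3 were at or near background. With let-7, 0 of 10 were called and 0.0388% of all 12887 probes (5 probes). With miR-125, 0 of 10 were called and 0% of all 12690. At an unadjusted p under 0.05 there were 3 members' probes and 17.5% of all probes for let-7, and 2 and 19.5% for miR-125. The largest difference of a member was in Ncam1 with let-7 and in Rbfox3 with miR-125. Of the 10 probes, 1 did not overlap between let-7 and mock (Ncam1 ILMN_2722864), beside 12.2% of all probes tested. Between miR-125 and mock, 3 did not overlap (Rbfox3, Uchl1 and Calb2 ILMN_2597412), beside 26.1% of all probes tested.

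With let-7, Ncam1 ILMN_2722864 read 10.37, 10.38 and 10.04 against 9.13, 9.41 and 9.0 in mock cells of the same replicate number. The groups did not overlap, and the let-7 array was higher by 1.24, 0.98 and 1.03 in the 3 pairs. For scale, 12.2% of all probes did not overlap between these groups. The difference was 1.08 ± 0.17, with an unadjusted p of 0.000605 and an adjusted p of 0.137 in limma. It passed the threshold without background correction, with median scaling and on the authors' normalized values, at 0.92, 1.07 and 0.92 (limma, adjusted p = 0.0185, 0.015 and 0.018). The second Ncam1 probe read 8.54, 8.60 and 7.92 with let-7 against 8.63, 8.14 and 8.13 in mock cells, and overlapped.

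With miR-125, the same Ncam1 probe read 9.10, 10.10 and 9.66 against 8.84, 9.41 and 9.0 in the mock cells of the third hybridization, which overlapped. Its difference was 0.54 with a 95% interval between -0.12 and 1.19 (limma, adjusted p = 0.338). The direct difference of let-7 and miR-125 in this probe was 0.61 ± 0.27 (limma, adjusted p = 0.278).

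Rbfox3 read 8.46, 8.61 and 7.83 with miR-125 against 6.85, 7.36 and 6.35 in mock cells of the third hybridization. All miR-125 arrays lay above all mock arrays, by 1.61, 1.25 and 1.48 in the 3 pairs, and 26.1% of all probes did not overlap between these groups. The difference was 1.45 ± 0.31, with an unadjusted p of 0.00227 and an adjusted p of 0.108 in limma. It passed without background correction (0.80, adjusted p = 0.0444), with median scaling (1.19, 0.0472), with all 10 arrays in the fit (1.44, 0.0334) and on the authors' normalized values (0.75, 0.0445). The second Rbfox3 probe was detected on 1 array in all, miR-125 replicate 2, at 5.87.

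With let-7, Rbfox3 read 6.42, 6.74 and 6.71 against 6.58, 7.36 and 6.35 in mock cells, and differed by -0.14 (95% interval -0.76 to 0.48). Set directly against miR-125, with a term for the hybridization, Rbfox3 was 1.58 ± 0.29 lower with let-7 (difference -1.58) and just missed the threshold (limma, adjusted p = 0.05151). In this comparison 0 of 10 members' probes and 0.602% of all 13617 probes were called (0.242% higher and 0.360% lower), and 4 members' probes were under an unadjusted p of 0.05. The groups did not overlap in 3 members' probes, Rbfox3 and both of Calb2, and in 19.3% of all probes. The replicate numbers paired these samples, and with the replicate as a block Rbfox3 differed by -1.55 and was called (limma, adjusted p = 0.0306). In the same blocked fit, Calb2 ILMN_2597412 (-0.66) and Dcx ILMN_2931623 (0.59) were also called, with adjusted p of 0.0447 and 0.0465, beside 4.13% of all probes (562 of 13617). Rbfox3 was called as well without miR-125 replicate 3, at -1.82 (limma, adjusted p = 0.047).

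Calb2 was detected by both probes in all knockout arrays of these hybridizations. ILMN_2827729 read 11.81, 12.50 and 12.31 with let-7 against 12.15, 12.74 and 12.79 in mock cells, lower in 3 of 3 pairs, a difference of -0.35 ± 0.12 (limma, adjusted p = 0.227). With miR-125 it read 12.77, 13.12 and 12.77 against 12.17, 12.74 and 12.79 and differed by 0.32 (limma, adjusted p = 0.441). ILMN_2597412 read 10.04, 10.17 and 10.16 with let-7, 10.55, 10.77 and 10.73 with miR-125, and 10.16, 9.73, 10.44 and 10.24 in the 4 mock arrays. All miR-125 arrays were above all mock arrays, and the difference was 0.55 ± 0.20 (limma, adjusted p = 0.207).

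Dcx values lay far apart within groups, and no Dcx probe was called against mock. Its first probe read 7.80, 6.08 and 6.23 with let-7 and 6.70, 6.91 and 5.62 with miR-125. In mock cells it read 7.99 and 7.90 on the 2 arrays of replicate 1 and 6.52 and 6.57 in replicates 2 and 3. Mock replicate 1 was high in both hybridizations, as was let-7 replicate 1, and all 3 groups overlapped. The let-7 difference was -0.32 ± 0.12 and the miR-125 difference -0.59 ± 0.47 (limma, adjusted p = 0.258 and 0.538). By pair, this probe was lower with let-7 in all 3 (-0.19, -0.44 and -0.34) and with miR-125 in 2 of 3 (-1.20, 0.39 and -0.94). The second probe read 6.70, 5.64 and 5.75 with miR-125 against 7.30, 6.32 and 6.36 in mock cells of the third hybridization. It was lower in all 3 pairs, by differences of -0.61, -0.68 and -0.62, though the groups overlapped, and the difference of -0.64 was not called (limma, adjusted p = 0.393, and 0.0676 with the replicate as a block). With let-7 it was lower in 2 of 3 pairs (-0.26, -0.13 and 0.13).

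Nsg2 and Syp, which had been low in the knockout arrays of the first hybridization, were detected on all 10 arrays here. In the first hybridization Syp was detected on all 3 knockout arrays and Nsg2 on none of them. Nsg2 read 8.04, 6.71 and 6.10 with let-7, 7.06, 6.01 and 6.36 with miR-125, and 6.49, 6.13, 6.91 and 6.14 in mock cells. Syp read 7.40, 6.19 and 5.85 with let-7, 7.37, 6.69 and 5.98 with miR-125, and 6.57, 6.71, 5.99 and 5.66 in mock cells. Neither passed the test against mock with either microRNA, with 95% intervals for Nsg2 between -0.53 and 1.40 for let-7 and between -0.69 and 0.85 for miR-125. The signal of detected probes over background was 3.37 to 6.55 in these hybridizations against 2.28 to 3.26 in the first, and the part of this in the detection of Nsg2 was not tested. Uchl1 read 10.68 to 11.64 with let-7, 10.88 to 11.12 with miR-125 and 10.61 to 11.23 in mock cells, with differences of 0.29 and 0.26 (limma, adjusted p = 0.443 and 0.343).

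The neuronal lists held no called gene in either comparison with mock or between let-7 and miR-125. For let-7 the list medians lay between -0.29 (6 fate factors) and 0.17 (11 vesicle genes) among lists of more than 1 tested gene, and for miR-125 between -0.35 (5 fate factors) and 0.18 (5 calcium-binding proteins). Gfap was not above background on any of the 10 arrays. Astrocyte markers summed to 6646 to 9743 with let-7, 5528 to 10249 with miR-125 and 5821 to 12012 in mock cells, and cell division genes to 25955 to 33983, 21366 to 30040 and 28729 to 38201. These ranges overlapped, and no marker gene was called.

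**Figure D4:**
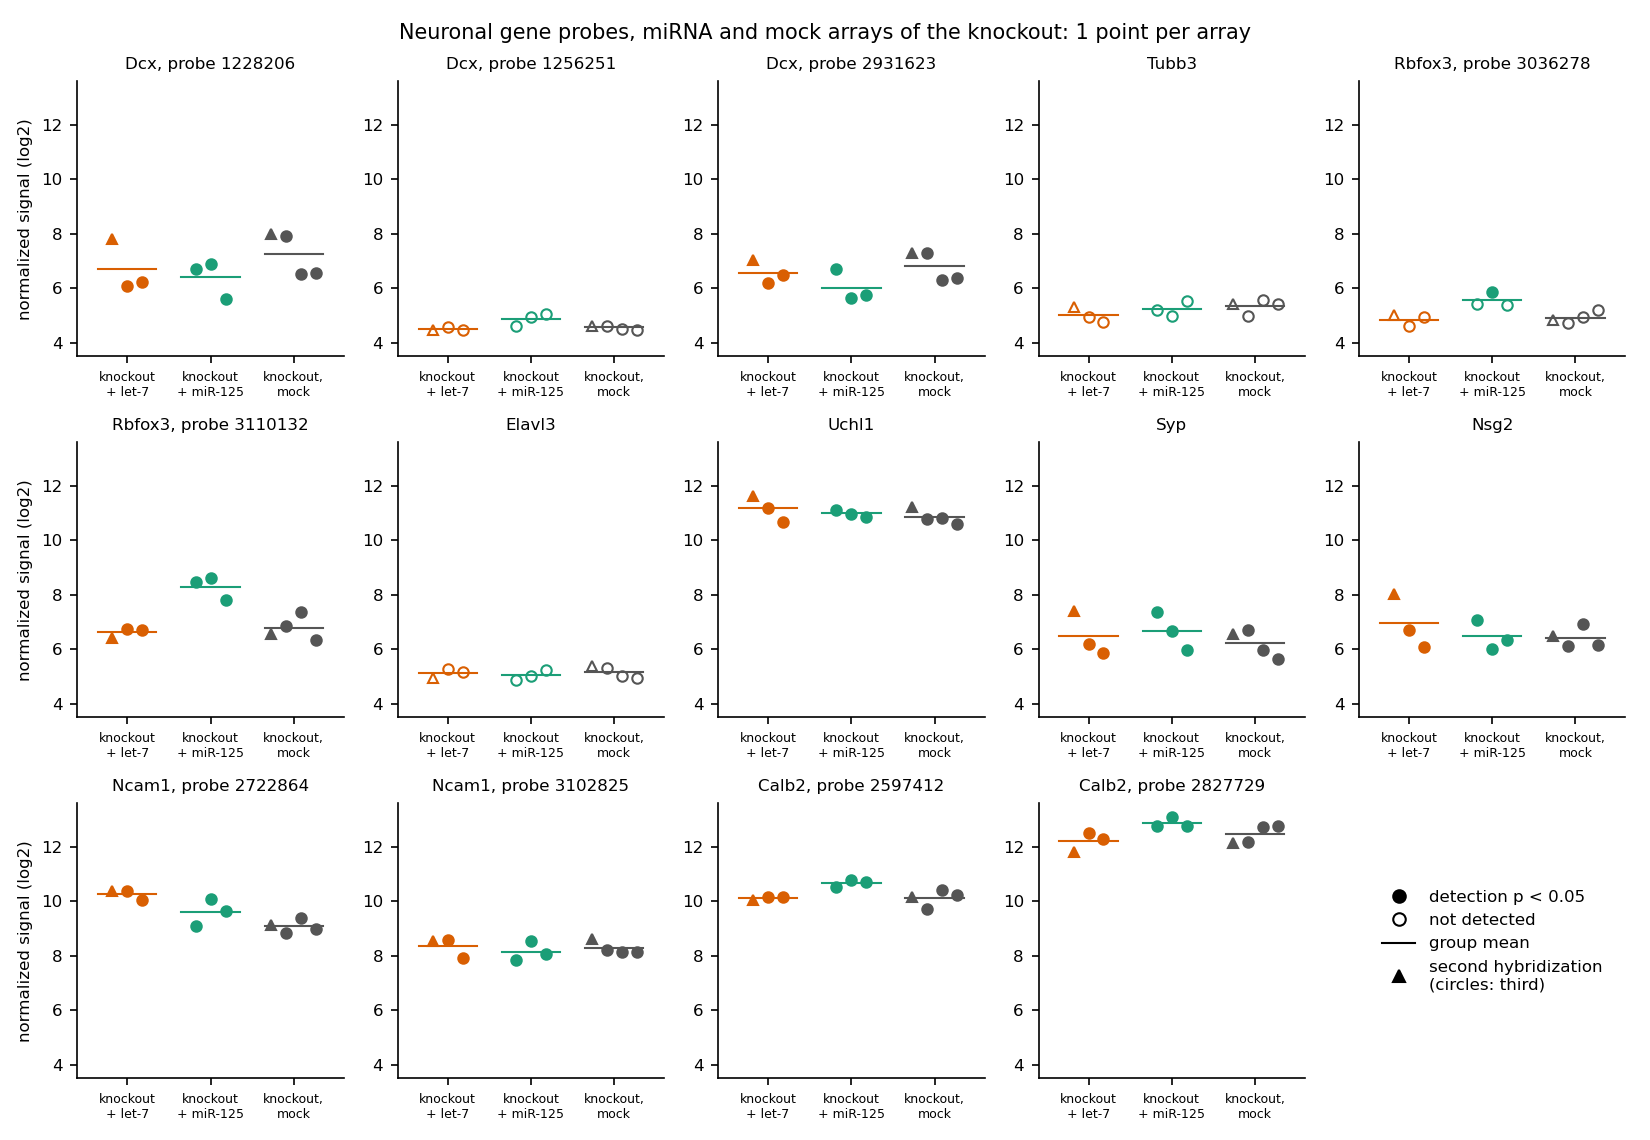
Normalized signal (log2) of the 14 neuronal probes on each knockout array of the second (triangles) and the third (circles) hybridization, by treatment, with group means. Rbfox3 ILMN_3110132 is higher on the 3 miR-125 arrays (7.83 to 8.61) than on the mock arrays (6.35 to 7.36), and Ncam1 ILMN_2722864 is higher on the 3 let-7 arrays (10.04 to 10.38) than on the mock arrays (8.84 to 9.41). Neither was called. In the tests against mock, 26.1% of all probes did not overlap for miR-125 and 12.2% for let-7.

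**Figure D5:**
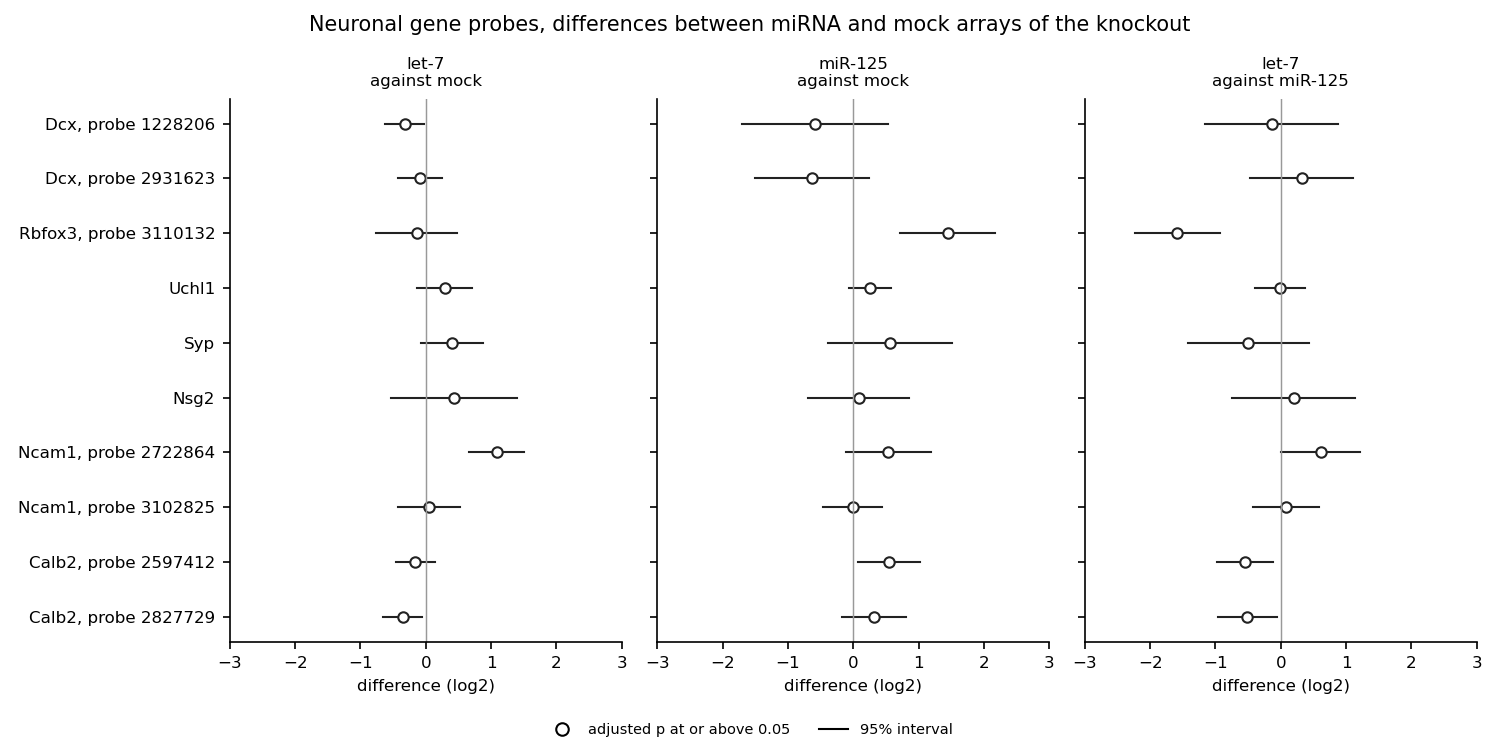
Log2 differences with 95% intervals for the 10 neuronal probes tested with let-7 or miR-125. No adjusted p was under 0.05 in limma. The intervals of Ncam1 ILMN_2722864 with let-7, of Rbfox3 with miR-125 and of Rbfox3 between the microRNAs lie farthest from 0.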

How the data were processed

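Per the file headers, the deposited data are bead signal intensity before normalization with a detection p-value beside it, and 4 tables normalized by the authors. From their values, 2 of these tables are linear intensity and 2 are log2, and each was quantile-normalized by the authors over its own 6 arrays. The submitters' processing notes name limma, without a version. 24 entries were 19 arrays, 5 of them entered again. In R 4.3.3 with limma 3.58.1, intensities were background-corrected and quantile-normalized with neqc (offset 16, negative controls inferred from the detection p-values), the 9 arrays of the first hybridization apart from the 10 others. Mean raw signal was 298 to 1523 per array, and the number of arrays limits the precision.

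Probes entered a test if 3 or more of its arrays had a detection p under 0.05. Differences were fitted with lmFit and eBayes on those arrays, and p-values were adjusted over all probes tested by Benjamini-Hochberg, with calls at an adjusted p under 0.05. let-7 against mock, and let-7 against miR-125, carried a hybridization term, and miR-125 against mock stayed within the third hybridization. let-7 against mock used mock replicate 1 of the second hybridization, and let-7 against miR-125 used both arrays of mock replicate 1 as separate arrays. The code was tested on simulated data.

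Genes were named from the platform annotation, with 23978 probes named, 1719 unnamed and 23962 matched by Entrez identifier. The members and lists were chosen with earlier results of these data known. Named genes are the members, the largest called rise and fall of each list, and the 2 genes most correlated with each member. Replicate numbers paired the let-7, miR-125 and mock arrays. Deviations of same-numbered arrays correlated at 0.87, 0.64 and 0.63 for let-7 and mock, and arrays of different numbers at -0.67 to 0.38. For miR-125 and mock, same-numbered arrays gave 0.53, 0.34 and 0.41, and the others -0.36 to -0.02. The let-7 and mock arrays of replicate 1 were also the 2 arrays of the second hybridization. For them the replicate and the hybridization cannot be told apart. In the authors' normalized values, replicates 1 and 3 of the undifferentiated flox/delta and knockout groups of the first hybridization carry each other's numbers when ranks are set against the intensities. Alternatives covered background correction, scaling, offset, filter, arrays in the fit, the replicate block, 1 probe per gene, the authors' values and leaving out each array.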

Additional observations from a re-analysis of the deposited data

Results flagged for a closer look

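Among the 4 mock arrays, Ncam1 ILMN_3102825 read 8.634 in replicate 1 of the second hybridization and 8.135 to 8.199 on the other 3. The gap was 0.871 of the whole range, above the 95% critical value of Dixon's test for 4 arrays. It was the only mock array of the second hybridization, so the array and its hybridization cannot be told apart. Over all detected probes its mean absolute log2 difference from the other 3 was 0.47 to 0.54, against 0.28 to 0.33 among those 3. All 14 probes were checked in this way. Chance marks about 1 group in 20 among arrays of 1 kind, whereas these 4 came from 2 hybridizations and held replicate 1 in both.

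Calb2 ILMN_2597412 was lower with let-7 than in mock in every replicate (-0.13, -0.27 and -0.08) and higher with miR-125 than in mock in every replicate (0.82, 0.34 and 0.49). The direct difference of let-7 and miR-125 was -0.5482 on the log2 scale and did not pass the threshold (limma, adjusted p = 0.187). With the replicate as a block, which the pairing of these arrays allows, it was -0.66 and passed (limma, adjusted p = 0.0447), beside 4.13% of all probes. The other Calb2 probe, ILMN_2827729, differed from mock by -0.34, -0.23 and -0.48 with let-7 and by 0.60, 0.38 and -0.02 with miR-125. Its direct difference was -0.51 and passed under no setting (limma, lowest adjusted p = 0.0607). In replicates 2 and 3 both microRNAs were set against the same mock arrays. The share of all probes with such opposite signs was not counted.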

How the results depend on the processing

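No difference of a member probe changed sign as a call under the alternatives run. Of 151, 166 and 161 values recomputed in the 3 comparisons of the first hybridization, 145, 147 and 156 kept their side of the threshold, and of 166, 156 and 176 with microRNAs, 163, 152 and 167 did. Nsg2 passed for differentiated against undifferentiated cells without background correction (0.30), with an offset of 50 (0.34), with the stricter filter or all 9 arrays in the fit (0.38), and on the authors' values (0.30). In the same comparison 0 member probes were lower with the stricter filter, and 0 to 1 when an array was left out. For knockout against flox/delta cells, leaving out an array gave 2 to 4 higher and 2 to 4 lower, and for differentiated against knockout cells 0 to 3 lower. With let-7, 1 was higher without background correction, with median scaling and on the authors' values. With miR-125, 1 was higher under those settings and with all 10 arrays in the fit. For let-7 against miR-125, 1 was lower without background correction, with median scaling, with an offset of 50, with the stricter filter and with 1 probe per gene, 0 to 1 when an array was left out, and 1 higher and 2 lower with the replicate block and hybridization. The cause was not tested.

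Over all probes, median scaling called 3395 for differentiated against undifferentiated cells, 1712 for knockout against flox/delta cells and 4485 for differentiated against knockout cells, against 6821, 6514 and 8864. let-7 against mock called 361 without background correction, 341 on the authors' values, 149 with median scaling and 0 without the hybridization term, against 5. miR-125 against mock called 298, 348 and 85 under the same first 3 settings and 404 with all 10 arrays, against 0. let-7 against miR-125 called 24 with no filter, 446 without background correction, 235 with median scaling, 254 with the stricter filter, 204 with an offset of 50 and 562 with the replicate block, against 82. Leaving out an array gave 0 to 1 for let-7 against mock, and 0 to 75 for let-7 against miR-125, with 0 for 6 of the 10 arrays. The share of calls that were higher was 56% for let-7 without background correction, against 100%, and 51.9% for let-7 against miR-125 with median scaling, against 40.2%. In the first hybridization, deviations of same-numbered arrays correlated at 0.11, 0.26 and 0.08 for knockout and flox/delta cells. Arrays of different numbers there gave -0.19 to 0.09. In the other comparisons of this hybridization, same-numbered arrays gave -0.07 to 0.17 and the others -0.18 to 0.15. A replicate block in the first hybridization called 6741, 6763 and 8905 probes, against 6821, 6514 and 8864. Signal over background limits the dim probes: Tubb3, Elavl3 and 1 probe each of Dcx and Rbfox3 were mostly below it.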
